A study of Arabidopsis thaliana with 4 samples.

Results

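The TRICHOME BIREFRINGENCE-LIKE (TBL) genes of Arabidopsis thaliana were compared between ago4-1 and wild-type plants. Members were the probe sets whose only gene symbol in the platform's annotation was TBR or TBL followed by a number, with no low-signal filter. This gave 22 genes, each with 1 probe set, of 13350 genes named by a single symbol and 22746 probe sets other than controls. The samples were 2 arrays of ago4-1, a mutant of the Argonaute gene AGO4, and 2 arrays of the wild-type line La-er. All were whole plants 5 weeks old, grown in hydroponics with 16 h of light, and their total RNA was hybridised to Affymetrix arrays, where each probe set is a group of short oligonucleotides. Replicates are biological according to the sample titles, with no word on how many plants went into each. AGO4 guides DNA methylation with small interfering RNAs, and the series asks what part it plays in development. In RNA from whole plants, fewer cells of a type and less RNA per cell cannot be told apart. The number of arrays limits the precision.

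Many matrix polysaccharides of the plant cell wall carry O-acetyl groups that are added in the Golgi before the polymers are secreted. The RWA and AXY9 proteins act on the side of the acetyl donor, and TBL proteins are the plant-specific family whose characterised members mostly transfer the group to a particular polymer. Members are known for xylan, the main matrix polymer of woody secondary walls, for mannan, and for xyloglucan, which coats cellulose in primary walls. The family is named for TBR, whose mutant has trichomes that lack the birefringence of crystalline cellulose.

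No TBL gene passed the test for a difference between ago4-1 and wild-type plants in the fit without a replicate block. Of the 22 genes, 0 reached an adjusted p under 0.05 with limma (Benjamini-Hochberg over all probe sets), where 0.615% of probe sets passed. At an unadjusted p under 0.05 there were 4 members, as there were 15.7% of all probe sets. TBL39, TBL36 and TBL45 were higher in ago4-1 (7.4% of all probe sets) and TBL35 was lower (8.28%). With probe sets under the 30th percentile of mean signal left out, 17 members were tested and 0 passed, against a background of 4.06%. The lowest adjusted p was then 0.0657, for TBL39. The differences of the 22 genes ran from -0.65 to 0.67 on the log2(signal + 16) scale, ago4-1 minus wild type. Of them 11 were above 0 and 11 below, with a median of -0.044, against -0.026 over all probe sets. Of the members 0 differed by 1 log2 unit or more, as 5.82% of all probe sets did.

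In 11 of the 22 genes the arrays of the genotypes did not overlap, against 47.1% of all probe sets. Both ago4-1 arrays lay above both wild-type arrays for 6 members (21.7% of all probe sets) and below them for 5 (25.4%). These shares are near the background. The median absolute difference between genotypes was 0.24 log2 units over the members. The median gap between the replicates was 0.18 in ago4-1 and 0.25 in wild type. Each gap is between single arrays, while the genotype difference is between means of 2 arrays. The sizes are thus unlike measures, and no conclusion is drawn from setting them side by side. Over all probe sets the median absolute difference was 0.27, and the replicate gaps were 0.27 in ago4-1 and 0.21 in wild type.

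**Figure D1:**
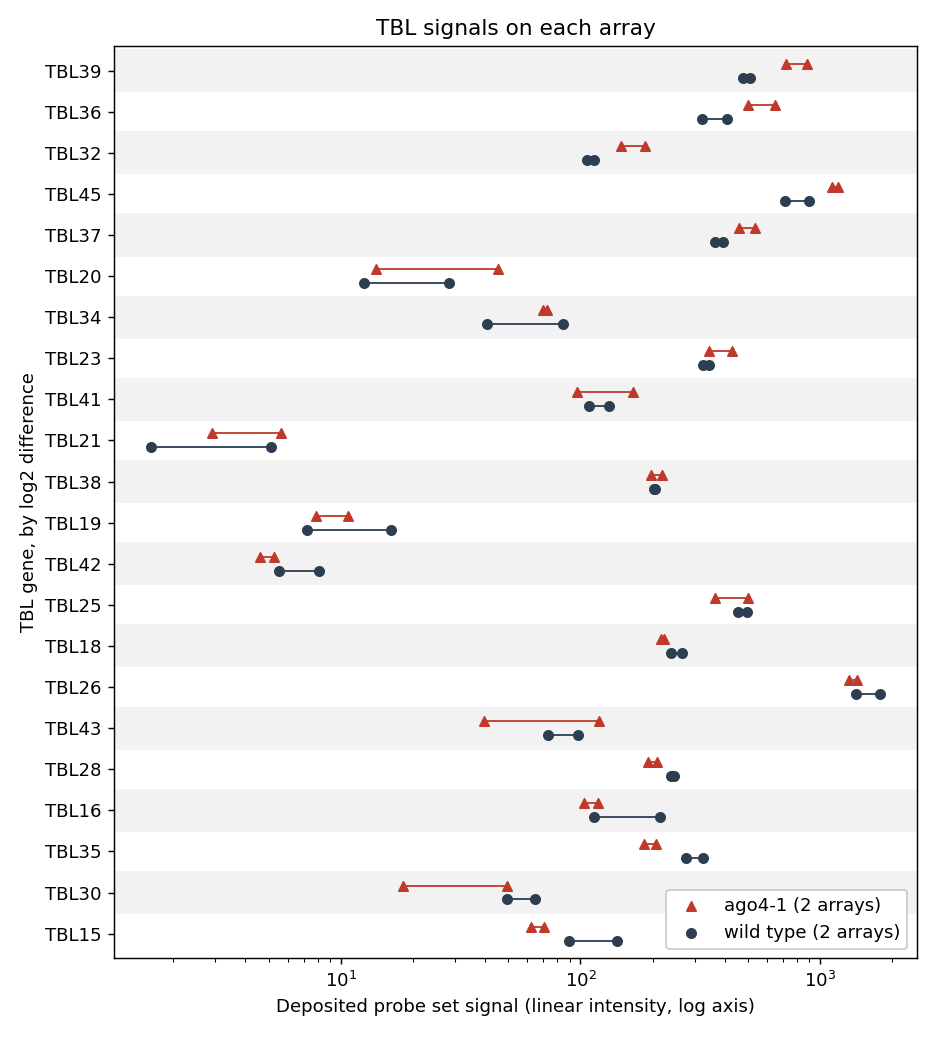
Deposited signal of each TBL gene on the 2 ago4-1 arrays (triangles) and the 2 wild-type arrays (circles), on a log axis, with a line joining the arrays of a genotype. Genes run down the page by log2 difference, from TBL39 at 0.67 to TBL15 at -0.65; 6 have both ago4-1 arrays above the wild-type arrays and 5 below, and 11 overlap. Signals of different genes come from different probes and are not comparable.

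Among the members with no polymer assigned here, TBL39, TBL36 and TBL45 had the largest differences above 0 relative to their errors. TBL39 (AT2G42570, chromosome 2) had signals of 885 and 720 in ago4-1 plants, against 478 and 512 in wild-type plants. Both ago4-1 arrays were high and the groups did not overlap. The log2 difference was 0.67 (SE 0.15, 95% interval 0.30 to 1.04, n = 2 each; limma unadjusted p = 0.0042, adjusted p = 0.127). TBL39 was called with the replicate number as a block, with a limma adjusted p of 0.0458 in a fit that called 4.16% of all probe sets, and those numbers are not known to pair the arrays.

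TBL36 (AT3G54260, chromosome 3) had 651 and 502 in ago4-1 plants, against 408 and 320 in wild-type plants. Its groups did not overlap either, and the replicates of each genotype were spread by a similar amount, 0.36 log2 units in ago4-1 and 0.34 in wild type. The log2 difference was 0.64 (SE 0.20, 95% interval 0.15 to 1.12; limma adjusted p = 0.209). TBL45 (AT2G30010, chromosome 2) had 1117 and 1184 in ago4-1 plants, against 712 and 902 in wild-type plants. Here the wild-type arrays were the more spread, and both ago4-1 arrays lay above them. The log2 difference was 0.51 (SE 0.15, 95% interval 0.15 to 0.87; limma adjusted p = 0.183).

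TBL37 (AT2G34070) followed the same order at a smaller distance, with 534 and 458 in ago4-1 plants and 363 and 393 in wild-type plants. Its log2 difference was 0.37, and the 95% interval, -0.014 to 0.76, held 0. TBL38 (AT1G29050), described as a pectin acetylesterase of seed mucilage cells, was at 219 and 196 in ago4-1 plants and at 203 and 204 in wild-type plants. Both wild-type arrays lay between the ago4-1 arrays, with a log2 difference of 0.026 and a 95% interval of -0.49 to 0.54.

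TBL15 (AT2G37720) had the lowest log2 difference of the 22 genes with all 4 arrays, -0.65. It stood at -0.36 without wild type replicate 2 and at -0.94 without wild type replicate 1. Its signals were 70.5 and 62.1 in ago4-1 plants and 89.8 and 142 in wild-type plants. The groups did not overlap, but the wild-type arrays were 0.58 log2 units apart and the 95% interval ran from -1.49 to 0.19. TBL16 (AT5G20680) was at 104 and 118 in ago4-1 plants, against 114 and 216 in wild-type plants, so 1 wild-type array stood apart and the groups overlapped. The log2 difference was -0.46. It was -0.042 without wild type replicate 2 and -0.87 without wild type replicate 1.

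TBL18 (AT4G25360) was at 216 and 223 in ago4-1 plants and at 264 and 238 in wild-type plants, a log2 difference of -0.18 with no overlap. TBL41 (AT3G14850) and TBL43 (AT2G30900) overlapped widely. In TBL43 the ago4-1 arrays, at 120 and 39.7, enclosed the wild-type arrays, at 97.6 and 73.5. Its difference turned from -0.21 with all arrays to 0.43 without ago4-1 replicate 2, and it was -0.86 without ago4-1 replicate 1. TBL41 had 166 and 96.4 in ago4-1 plants and 109 and 132 in wild-type plants. TBL42 (AT1G78710) was at 5.25 and 4.62 in ago4-1 plants and 8.13 and 5.52 in wild-type plants, with no overlap. Its log2 difference of -0.12 rests on signals below the constant of 16 added to them, which understates changes of low signals.

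**Figure D2:**
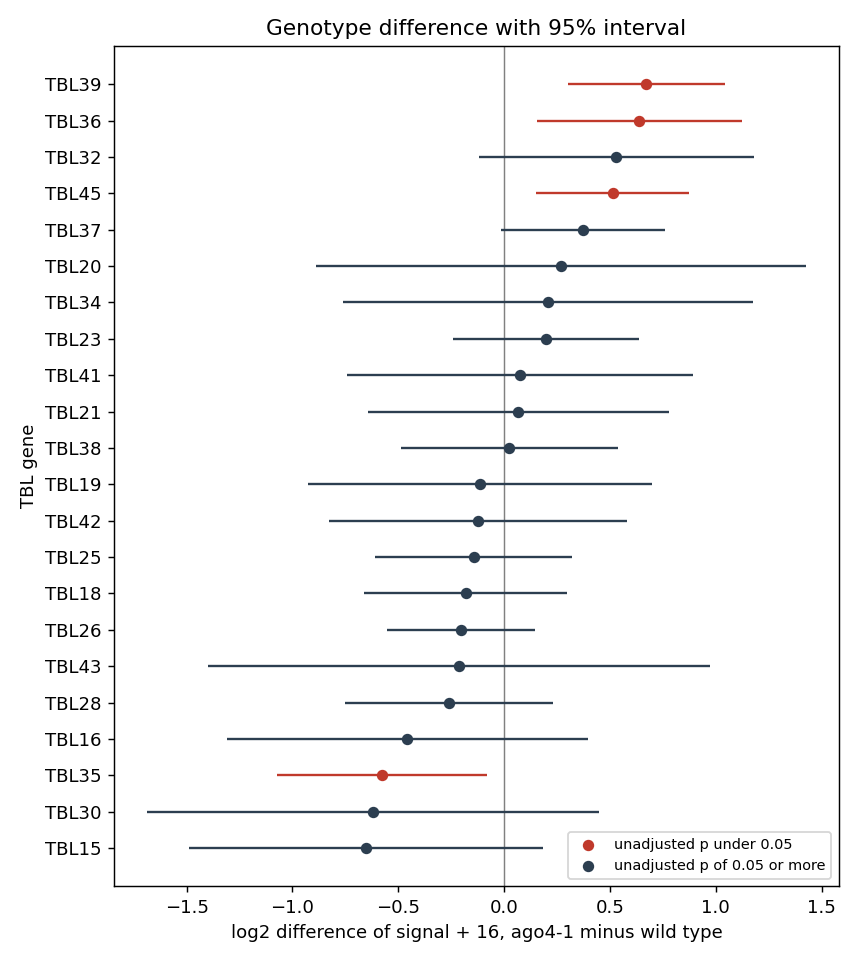
Log2 difference of signal + 16, ago4-1 minus wild type, for each TBL gene, with its 95% interval from limma's moderated test (2 arrays a genotype). The intervals of TBL39, TBL36 and TBL45 lie above 0 and that of TBL35 below it before adjustment for multiple tests; none of the 22 passes after it.

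Of the genes whose proteins acetylate xylan or belong to that branch of the family, 5 had a probe set paired with them here, and they went both ways. The median log2 difference of the 5 was -0.26, with 2 above 0, and 0 passed the test. TBL35 (AT5G01620, chromosome 5), which adds acetyl groups to xylan, had 207 and 184 in ago4-1 plants, against 276 and 324 in wild-type plants. Both ago4-1 arrays were lower than both wild-type arrays. Between single arrays of the genotypes the log2 differences ran from -0.76 to -0.39. The replicate gaps were 0.15 log2 units in ago4-1 and 0.22 in wild type. Its log2 difference was -0.58 (SE 0.20, 95% interval -1.07 to -0.079; limma unadjusted p = 0.0295, adjusted p = 0.254).

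TBL32 (AT3G11030), another xylan acetyltransferase, lay on the other side, with 185 and 148 in ago4-1 plants and 106 and 113 in wild-type plants. The groups did not overlap, but its interval held 0 (log2 difference 0.53, 95% interval -0.12 to 1.18). Its probe set carries the platform's suffix for probes that match more than 1 transcript, so other transcripts may add to its signal. TBL34 (AT2G38320) was at 70.0 and 72.4 in ago4-1 plants, between the wild-type values of 40.8 and 84.2.

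TBL28 (AT2G40150) and TBL30 (AT2G40160) are next to each other on chromosome 2, with 0 annotated genes between them. TBL28 had 192 and 208 in ago4-1 plants, against 247 and 238 in wild-type plants, a log2 difference of -0.26 with no overlap. TBL30 had 18.2 and 49.5 in ago4-1 plants, against 49.4 and 64.6 in wild-type plants. The low value of TBL30 is that of ago4-1 replicate 1. Its difference was -0.62 with all arrays and -0.15 without that array, and it ran to -1.09 without ago4-1 replicate 2. Neither neighbour passed (limma adjusted p = 0.595 for TBL28 and 0.559 for TBL30).

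Of the mannan acetyltransferases, 3 genes had a probe set paired with them here, with differences between -0.20 and 0.20. TBL26 (AT4G01080) was at 1424 and 1318 in ago4-1 plants and at 1778 and 1406 in wild-type plants, which overlapped. Its 95% interval, -0.55 to 0.14, was the narrowest of the 22 genes. TBL25 (AT1G01430) was at 365 and 500.3 in ago4-1 plants and at 455 and 494 in wild-type plants, with both wild-type arrays inside the ago4-1 range. TBL23 (AT4G11090) stood on the other side of 0, at 345 and 430 in ago4-1 plants and 324 and 344 in wild-type plants. The groups of TBL23 did not overlap, by a margin of about 1 signal unit, and its 95% interval was -0.24 to 0.64.

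TBL19 (AT5G15900), TBL20 (AT3G02440) and TBL21 (AT5G15890), relatives of the xyloglucan acetyltransferases AXY4 and AXY4L, all had low signals, and all 3 were among the 5 members under the 30th percentile. TBL21 and TBL19 are direct neighbours on chromosome 5. TBL21 had 5.61 and 2.89 in ago4-1 plants and 5.14 and 1.61 in wild-type plants, and TBL19 had 7.91 and 10.7 in ago4-1 plants and 7.23 and 16.2 in wild-type plants. TBL20 was at 14.0 and 45.2 in ago4-1 plants and at 28.2 and 12.5 in wild-type plants. All 3 overlapped between genotypes, and no detection calls were used that would say whether they were expressed. Their 95% intervals reached from -0.92 for TBL19 to 1.42 for TBL20, so these probe sets carry little information on a difference.

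**Figure D3:**
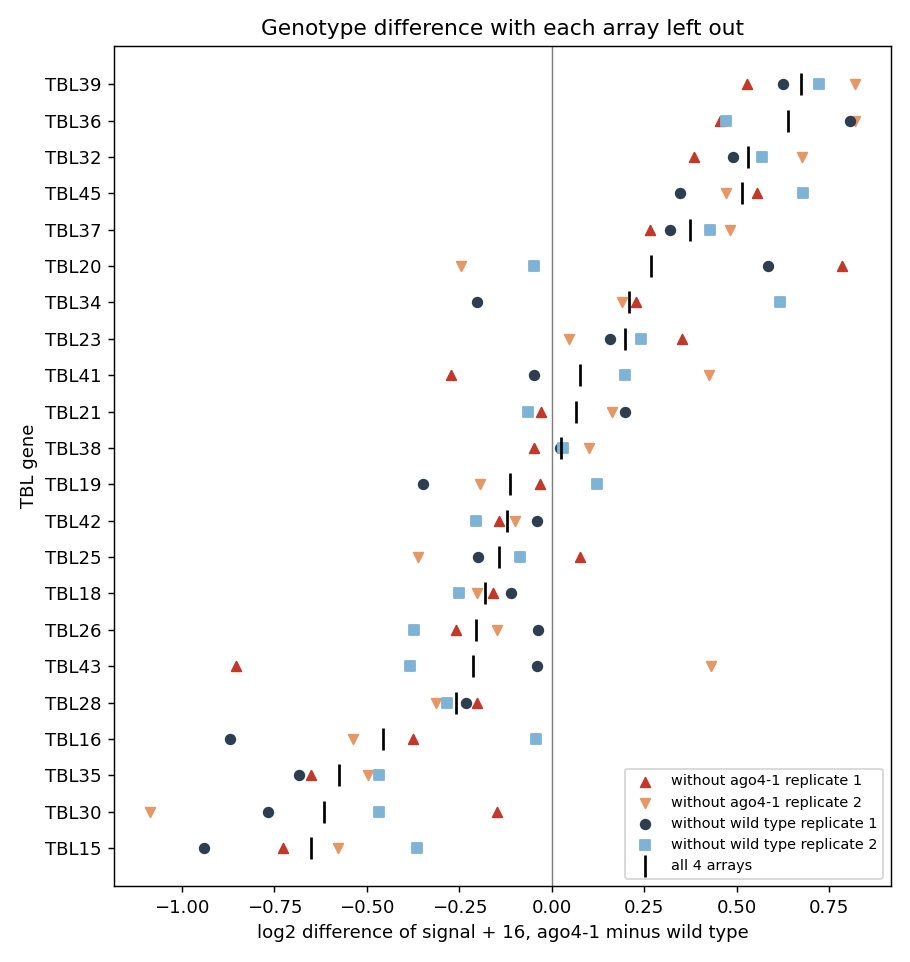
Log2 difference of each TBL gene, ago4-1 minus wild type, with all 4 arrays (bars) and with each array left out in turn (symbols). TBL39 stays between 0.53 and 0.82 and TBL35 between -0.68 and -0.47, while 8 of the 22 genes, among them TBL43 and TBL20, have at least 1 value on the other side of 0.

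In the RefSeq gene table (assembly TAIR10.1) 46 genes carry a TBR or TBL name or synonym. Of these, 22 have no probe set paired with them here and were not analysed, among them ESK1, the main xylan acetyltransferase, and PMR5. A further 2 are listed under a locus tag alone and so are not members. TBR itself (AT5G06700) was at 490.2 and 490.1 in ago4-1 plants and at 535 and 613 in wild-type plants. Its arrays did not overlap, and its log2 difference was -0.22 (95% interval -0.57 to 0.13; limma adjusted p = 0.526). TBL40 (AT2G31110) has a pair of probe sets, and both had means above wild type in ago4-1. The first had 382 and 435 in ago4-1 plants and 221 and 271 in wild-type plants, with no overlap. Its log2 difference was 0.70 (SE 0.19, 95% interval 0.24 to 1.16), with a limma unadjusted p of 0.0098 and an adjusted p of 0.164. The second had 182 and 224 in ago4-1 plants and 134 and 189 in wild-type plants, which overlapped, and a log2 difference of 0.31. Probe sets that should report the same gene thus gave differences of unequal size, and neither passed.

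Other genes of wall synthesis (acetyl donors, xylan, xyloglucan, mannan, pectin, cellulose, lignin and secondary wall regulators) and of trichome formation were thinly covered. Of 126 such genes, 13 had a probe set paired with them alone, by symbol or locus tag, and 1 passed, where the background is 0.615% of all probe sets. That gene was CSLC4 (AT3G28180, chromosome 3), which makes the glucan backbone of xyloglucan. CSLC4 had 194 and 184 in ago4-1 plants, against 507 and 620 in wild-type plants, so both ago4-1 arrays were far below both wild-type arrays. It fell by 1.49 on the log2 scale (SE 0.18, 95% interval -1.94 to -1.05, n = 2 each; limma adjusted p = 0.0363). With the low-signal filter the limma adjusted p was 0.00477, and across the alternatives with all 4 arrays it ran from 0.00366 to 0.156. The call was lost with any 1 array left out. Such fits leave a single array in 1 genotype and called almost none of all probe sets, so this loss is not particular to CSLC4. The difference itself stayed between -1.63 and -1.35 in these fits.

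The other 4 xyloglucan backbone genes, CSLC5, CSLC6, CSLC8 and CSLC12, had log2 differences from -0.13 to 0.31 and did not pass. Of the xylan synthesis genes 4 were paired and 0 passed. Among them, IRX15 had 114 and 34.5 in ago4-1 plants and 15.2 and 21.7 in wild-type plants. Its log2 difference of 1.24 had a 95% interval from -0.024 to 2.50. The difference was 0.56 without ago4-1 replicate 1 and 1.92 without ago4-1 replicate 2. IRX10, a xylan backbone enzyme, was at 0.30 on the log2 scale, its homologue IRX10-L at -0.083 and IRX15-L at -0.084. CSLA3, of the mannan synthases, stood at 0.27. Of the lignin enzymes, HCT stood at 0.28. The peroxidase PRX72 was at 32.1 and 6.56 in ago4-1 plants and 1.69 and 5.79 in wild-type plants, so 1 ago4-1 array stood apart. Its log2 difference was 0.75, and 0.20 without ago4-1 replicate 1 and 1.29 without ago4-1 replicate 2; it was 1.89 with a pseudocount of 1 and 0.28 with one of 64. The trichome regulator TRY stood at -0.19. The lists of acetyl donors, cellulose synthesis, pectin and secondary wall regulators had 0 paired genes.

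The median signal was 151 and 164 on the ago4-1 arrays and 162 and 165 on the wild-type arrays, each array having a trimmed mean of 500.1. Of 6 leaf markers 2 were paired, RCA and LHCB4.1, both in photosynthesis. They summed to 58367 and 60974 in ago4-1 plants and to 61862 and 62802 in wild-type plants. Of 5 root markers 3 were paired, PYK10, EXPA7 and EXPA18. They summed to 410 and 181 in ago4-1 plants, against 396 and 219 in wild-type plants. These sums fell from replicate 1 to replicate 2 in both genotypes. PYK10 alone was at 351 and 137 in ago4-1 plants and at 290 and 114 in wild-type plants. EXPA7 went the other way between replicates, at 9.38 and 37.3 in ago4-1 plants and 6.95 and 28.6 in wild-type plants. Of the 3, EXPA18 alone did not overlap, at 49.5 and 6.13 in ago4-1 plants and 98.1 and 76.9 in wild-type plants (log2 difference -1.44, limma adjusted p = 0.299). Its difference was -0.65 without ago4-1 replicate 2 and -2.22 without ago4-1 replicate 1, and -2.21 and -0.76 with pseudocounts of 1 and 64. Their part in the TBL values was not tested. AGL104, the 1 paired marker of late pollen, was at 13.6 and 12.5 in ago4-1 plants and 15.7 and 11.7 in wild-type plants, and the tapetum regulator AMS was at 33.0 and 69.7 in ago4-1 plants and 65.5 and 69.2 in wild-type plants. The seed, xylem and trichome markers had no paired probe set, so the share of those tissues was not checked.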

How the data were processed

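The deposited values are intensity values, 1 linear signal per probe set and array, and GCOS was the tool used, per the submitters' processing notes. From their equal trimmed means the authors' arrays were taken to be scaled, and no further normalization was applied. Of the probe sets, 64 controls were left out, 13513 were paired with 1 symbol and 503 with several, and 8730 were unlisted. Signals were not compared between probe sets.

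Values were taken as log2(signal + 16) and fitted by limma 3.58.1 (R 4.3.3) with a two-sided moderated test whose prior variance followed a trend on signal (residual degrees of freedom 2, prior degrees of freedom 4.20 at the median), with Benjamini-Hochberg adjustment over 22746 probe sets and a threshold of 0.05. Exact permutation of 2 against 2 arrays cannot give a p under 0.333. In 10 simulated draws of 22746 probe sets, 200 were moved by 1 or 2 log2 units, with independent normal noise. The fit called 38.2% of the probe sets moved by 1 log2 unit and 85% of those moved by 2. Of all calls 13.2% were false, a share above the threshold of 0.05. These rates depend on the number moved and need not hold for the real arrays. Named genes were all members and, per gene list, up to 4 with the smallest p; CSLC6 was named beyond that. The members and lists were chosen with earlier results of these data known. The deviations of same-numbered arrays correlated at 0.069. Alternatives were other scalings, pseudocounts, filters, variance models and thresholds, the replicate block and each array left out. Where 1 array of a genotype remained, it was assumed to vary like the others.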

Additional observations from a re-analysis of the deposited data

How the results depend on the processing

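The count of TBL genes passing was 0 in each setting except the replicate number as a block, where it was 1 (TBL39, 0.67). The titles' numbers are not said to mark a shared batch, so whether same-numbered samples share more than a number is not known. From replicate 1 to replicate 2, PYK10 fell and EXPA7 rose in both genotypes. Over all probe sets the deviations of same-numbered arrays correlated at only 0.069. Whether any of this bears on TBL39 was not tested. The 22 TBL genes kept their direction in each setting that used all 4 arrays and could test them. With an array left out, 8 turned. These were TBL20 (-0.25 to 0.78), TBL34 (-0.20 to 0.62), TBL41 (-0.27 to 0.42), TBL21 (-0.065 to 0.20), TBL38 (-0.048 to 0.10), TBL19 (-0.35 to 0.12), TBL25 (-0.36 to 0.076) and TBL43 (-0.86 to 0.43). The median over the members was 0.0069 with centred arrays, 0.026 with either low-signal filter (17 or 11 members left), -0.061 and -0.0099 with pseudocounts of 1 and 64, -0.016 with quantile normalization and -0.045 to -0.027 with 1 array left out. The median over all probe sets was 0.025 with centred arrays, and -0.035 and -0.030 with the filters at the 30th and 50th percentile. It was -0.0325 and -0.016 with pseudocounts of 1 and 64, -0.011 with quantile normalization and -0.034 to -0.018 with 1 array left out. The count over all probe sets was 140 (65% higher in ago4-1). It was 504 at an adjusted p under 0.10 (56.2%), 647 (52.7%) and 501 (49.7%) with the filters at the 30th and 50th percentile, 68 with a minimum difference of 1.2-fold, 310 and 85 with pseudocounts of 1 (57.1%) and 64, 947 with the replicate block (52%), 228 with robust moderation, 0 with no variance trend and 0 to 4 with 1 array left out. CSLC4 lost its call with a minimum difference of 1.2-fold (limma adjusted p = 0.0672), no variance trend (0.156) and a pseudocount of 64 (0.0557). It also lost it with any array left out, where almost no probe sets were called. Signs turned for RCA (0.045) and LHCB4.1 (0.074) with quantile normalization, and for LHCB4.1 (0.0021) and AGL104 (0.023) with centred arrays. With 1 array left out they turned for IRX15-L (-0.21 to 0.039), CSLC12 (-0.13 to 0.75), CSLC5 (-0.27 to 0.036), CSLC6 (-0.35 to 0.098), PYK10 (-0.38 to 0.88), EXPA7 (-0.33 to 0.74), AGL104 (-0.13 to 0.071) and AMS (-0.77 to 0.041). The cause of these changes was not tested. Since each member had 1 probe set, the alternatives on several probe sets per gene could not be run. A median standard error of 0.24 log2 units over the members limits what could be detected.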
